A study of Mus musculus with 31 samples.

Results

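Actc1, Mybph, Myh3, Myh8, Ankrd1, Csrp3 and Myl4 are muscle genes used in developing muscle, in the heart, or in fibres under stretch or repair. They are 7 of the 39017 genes in the count tables of a mouse gastrocnemius study, and all 7 were among the 14024 genes that passed a filter on low counts. The list was chosen by gene name with earlier results of these same counts known, and the comparison whose measured values led to it is not recorded. The fold changes and adjusted p-values of the 7 genes therefore describe these libraries and are not independent support. The lower level of Mybph in male knockout mice on the high-fat diet was a known result, and it is given as a description with no test. Averages, diet and sex comparisons and interactions of Mybph that use those male libraries rest in part on the same counts.

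The study measured polyA RNA by stranded sequencing in the gastrocnemius, a calf muscle made mostly of fast fibres, and crossed MuRF1 genotype with diet in both sexes. MuRF1 is the muscle ubiquitin ligase encoded by Trim63. Knockout (KO) mice are MuRF1 -/- and are set against wild-type (WT) mice. The high-fat diet (HFD) held 45% lard-based fat and replaced chow at 8 weeks of age, and muscle was taken at 30 weeks. The 30 grouped libraries were 3 of male KO HFD, 4 of male WT HFD, 4 of male KO chow, 4 of male WT chow, 3 of female KO HFD, 4 of female WT HFD, 4 of female KO chow and 4 of female WT chow. All mice were weaned onto chow and fed freely. The sources used here do not give the strain, the construction of the MuRF1 allele or whether wild-type mice were littermates.

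Each library was placed in the group of the title that carries its animal number, because in 19 records the title and the description name different animals. The record's own title gives another group for 4 of the 30 libraries (the conflicting labels), which are male KO HFD 3, female WT HFD 4, female KO chow 4 and female WT chow 4. The library of 1 more animal, whose number is in no title, stayed out of all groups. Trim63 lay between 0.47 and 6.24 CPM (counts per 1000000 counts of the library) in the 14 KO libraries and between 108.54 and 253.61 CPM in the 16 WT libraries, and 3 of the WT libraries were below 150 CPM (male WT chow 3, female WT HFD 4 and female WT chow 1). By own titles, the 2 of these 4 libraries titled KO had 221.42 and 119.20 CPM of Trim63, and the 2 titled WT had 1.80 and 0.87 CPM. The Y-linked Ddx3y was at 30.29 to 55.76 CPM in males and at most at 0.76 CPM in females, and Xist was at 0 to 1.44 CPM in male and 67.65 to 270.88 CPM in female libraries. Male KO HFD 3, whose own title names female WT chow, had 34.05 CPM of Ddx3y and 1.15 CPM of Xist. The skin keratin Krt10, with a median of 1.80 CPM, reached 22.38 and 47.38 CPM in female KO chow 1 and 3 and 23.75 CPM in female WT chow 3. Defining markers of heart muscle were at or near 0: Nppa did not exceed 0.08 CPM, Mybpc3 0.18 CPM and Tnni3 0.89 CPM in any grouped library. The fourth heart marker, Myh6, had 9 to 56 counts, at most 4.06 CPM, and was lower in males (-0.47 ± 0.18, adjusted p = 0.0441). The skeletal actin gene Acta1 ranged from 25668 to 45591 CPM. Total counts ran from 9342028 to 14919379 per library. The labels name separate animals, but p-values measure only the spread between these libraries.

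During development a muscle fibre builds its contractile filaments first from embryonic and heart-type proteins, and exchanges them for adult fast or slow forms around and after birth. Adult fibres keep low levels of several early genes and use them again in regeneration, after nerve injury, under mechanical load and in muscle spindles. MuRF1 sits at the M line of the sarcomere, where it binds titin, and is best known for its part in muscle wasting.

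The promoters of Actc1 and Mybph are shown because these 2 genes had the widest range of the 7 and their groups came in nearly the same order. They span 250 bases before to 50 bases after the RefSeq start on GRCm38.p6, at chr2:114052826-114053125 on the minus strand for Actc1 and chr1:134193198-134193497 on the plus strand for Mybph, and each is written 5′ to 3′ along its gene. Capitals mark matches to motifs searched on both strands.
Actc1: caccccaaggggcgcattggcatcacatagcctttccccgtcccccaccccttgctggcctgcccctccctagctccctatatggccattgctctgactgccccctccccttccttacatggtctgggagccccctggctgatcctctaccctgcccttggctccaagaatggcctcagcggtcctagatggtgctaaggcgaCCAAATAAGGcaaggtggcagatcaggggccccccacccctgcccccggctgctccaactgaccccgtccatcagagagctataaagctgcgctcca
Mybph: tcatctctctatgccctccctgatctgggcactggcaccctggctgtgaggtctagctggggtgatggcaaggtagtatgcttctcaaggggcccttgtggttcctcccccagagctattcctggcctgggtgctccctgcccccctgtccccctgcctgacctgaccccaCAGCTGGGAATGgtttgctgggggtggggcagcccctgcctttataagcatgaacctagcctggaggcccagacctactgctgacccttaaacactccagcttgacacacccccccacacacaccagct
In Actc1 the capitals are a CArG box, the element bound by serum response factor, whose first base lies at position -47 relative to the start. In Mybph they are CAGCTG at -79, an E-box of the kind bound by myogenic factors, followed without overlap by the reverse complement of CATTCC at -73, the core of the M-CAT element bound by TEAD factors. A CArG match was found in 1.63% of 32851 mouse promoter windows of the same length, CAGCTG in 16.3% and CATTCC in 14.7%. The Ankrd1 window held 2 CATTCC matches and the Myh8 window 1 MEF2 match at -99, a motif present in 3.19% of windows. The Csrp3 window (the upstream one of 2) and the Myl4 window each held 1 match to AGAACA, a glucocorticoid receptor half-site present in 19.0% of windows, at -181 and -92. The Myh3 window held no match to any of these 5 motifs. A match is a description of these letters and no measure of binding.

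Scaled by the length of all annotated exons, the levels spanned a wide range. That length exceeds the longest coding transcript, by far for Myl4 (4637 against 943 bases) and Csrp3 (2671 against 899). For Actc1 the lengths were close (1618 against 1473), so the order of the genes depends on the length used. Median levels over the 30 libraries were 397 TPM (counts scaled by exon length and by library) for Actc1, 178 TPM for Mybph, 75.1 TPM for Csrp3, 14.7 TPM for Ankrd1, 5.44 TPM for Myl4, 5.22 TPM for Myh8 and 2.45 TPM for Myh3. The adult counterparts were far higher on the same scale, with a median of 55510 TPM for Acta1 and 25760 TPM for Myh4, the gene of the fastest myosin heavy chain. Each of the 7 genes was counted in every grouped library, and the lowest count was 18, for Myh3.

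**Figure D1:**
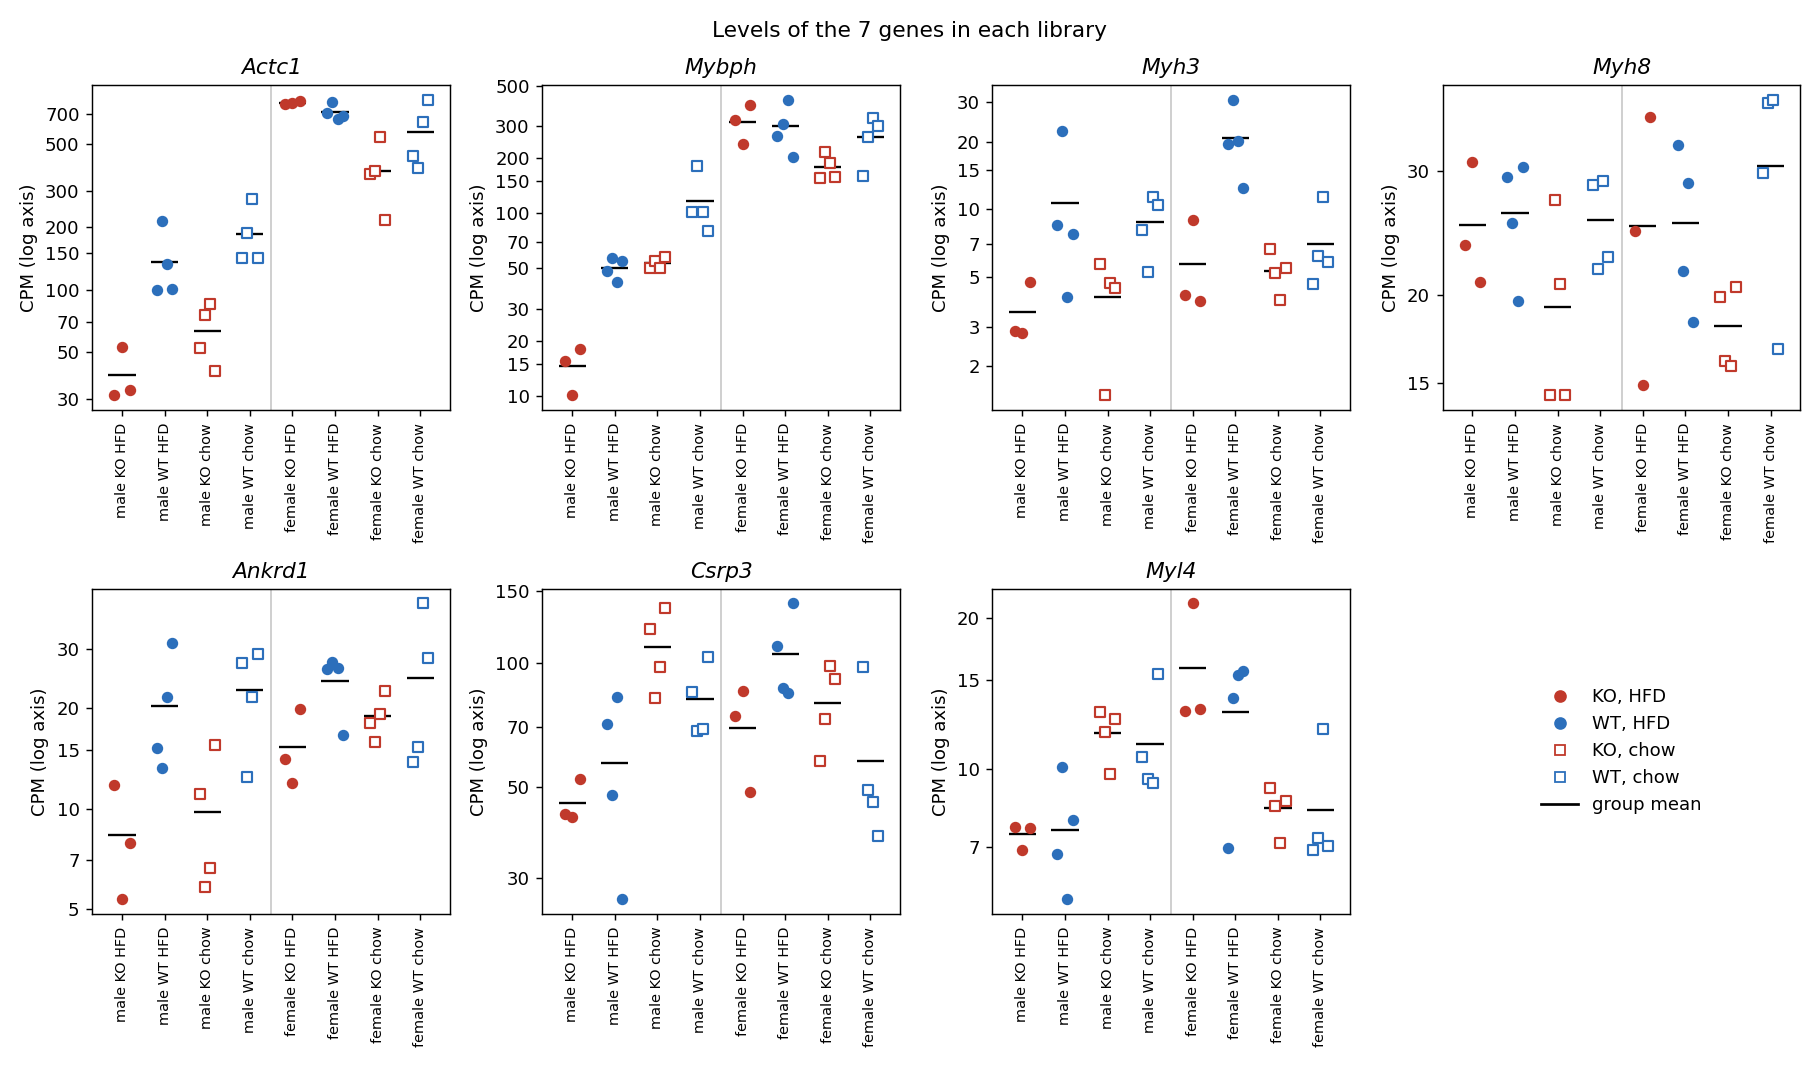
CPM of the 7 genes in each of the 30 libraries on log axes, with 1 symbol a library and a bar at the mean of each of the 8 groups. Actc1 and Mybph are low in male KO HFD (31.05 to 53.02 and 10.05 to 18.00 CPM) and high in all female groups, while Myh8 stays between 14.39 and 37.95 CPM in all groups.

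The first comparison asked what MuRF1 loss did to these genes. Averaged over both sexes and diets, 4 of the 7 genes were lower in KO than in WT muscle and none was higher. They were the cardiac actin Actc1, the myosin-binding protein Mybph, the embryonic myosin heavy chain Myh3 and the titin-linked ankyrin repeat protein Ankrd1. Among all genes tested 4.39% passed in this comparison, at a Benjamini-Hochberg adjusted p under 0.05 in edgeR's quasi-likelihood test. The median log2 fold change was -0.79 over the 7 genes and -0.01 over all genes. Over the 14 comparisons of genotype, diet and sex that follow, the 7 genes gave 24 calls, counting the known Mybph difference in male HFD. Of these, 16 were lost when each library took the group of its own title, including the 4 genotype averages (adjusted p from 0.106 to 0.368). That grouping placed libraries with 221.42 and 119.20 CPM of Trim63 among KO and libraries with 1.80 and 0.87 CPM among WT. It also added the library of no group, with 107.11 CPM, to male KO HFD, so some of its groups mixed KO and WT levels of Trim63. Markers of other cell types were lower in KO muscle in the same average: 4 of 5 macrophage markers (median of the 5 -0.41), 2 of 5 fibroblast markers (Col3a1 -0.80 and Col1a1 -0.78) and 1 of 4 endothelial markers (Cdh5 -0.33). The summed macrophage level was 12.2 to 88.5 CPM in KO and 31.1 to 98.0 CPM in WT libraries, and the summed fibroblast level 103.6 to 1424 CPM in KO and 334.4 to 1705 CPM in WT libraries. Their part in the averages was not tested. Whether lower levels reflect fewer fibres expressing a gene or less RNA per fibre cannot be told apart in whole muscle.

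Actc1 (ENSMUSG00000068614, chromosome 2, 114047282 to 114053548, mm10) encodes cardiac alpha-actin, the thin-filament actin of the heart and of fetal skeletal muscle. On the high-fat diet it had 31.05, 53.02 and 33.12 CPM in male KO muscle, against 99.72, 213.34, 132.35 and 100.88 CPM in male WT muscle. On chow it had 52.57, 75.53, 85.75 and 40.60 CPM in male KO muscle, against 141.45, 188.58, 272.79 and 141.94 CPM in male WT muscle. Every male KO library was below every male WT library on the same diet. The log2 fold change was -1.76 ± 0.34 (SE) on the high-fat diet (adjusted p = 0.0152) and -1.36 ± 0.30 on chow (adjusted p = 0.0105). The chow call was lost without male WT chow 3, 1 of the libraries with low Trim63 (-1.12, adjusted p = 0.0517). The high-fat call was lost without male KO HFD 1 or 3 or male WT HFD 2 or 3, at adjusted p from 0.0532 to 0.108, with log2 fold changes from -1.48 to -1.76. With the 2 male groups of a diet fitted alone, neither passed (adjusted p = 0.129 on the high-fat diet and 0.0813 on chow).

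In females Actc1 did not separate the genotypes. On the high-fat diet it had 783.04, 787.21 and 810.35 CPM in female KO muscle, against 708.75, 796.35, 665.77 and 682.05 CPM in female WT muscle. On chow it had 362.18, 370.89, 544.68 and 216.07 CPM in female KO muscle, against 438.87, 384.24, 642.95 and 820.75 CPM in female WT muscle. The genotypes overlapped on both diets, with log2 fold changes of 0.20 ± 0.32 and -0.66 ± 0.30 (adjusted p = 0.907 and 0.991). Averaged over the strata, Actc1 fell by 0.90 ± 0.16 on the log2 scale (adjusted p = 0.00167). The genotype difference in males minus that in females was -1.33 ± 0.31 and did not pass (adjusted p = 0.0968). It passed without male KO chow 4 (-1.23, adjusted p = 0.032) and in DESeq2 (-1.32, adjusted p = 0.0179).

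Mybph (ENSMUSG00000042451, chromosome 1, 134193448 to 134201232, mm10) encodes myosin-binding protein H, a thick-filament protein related to myosin-binding protein C. On the high-fat diet it had 15.49, 10.05 and 18.00 CPM in male KO muscle, against 48.32, 56.73, 41.75 and 54.91 CPM in male WT muscle, a log2 fold change of -1.76 ± 0.27. On chow it had 50.29, 54.84, 50.34 and 57.45 CPM in male KO muscle, against 102.12, 180.90, 101.53 and 79.68 CPM in male WT muscle. The male genotypes did not overlap on either diet. The fall on chow was -0.94 ± 0.23 (adjusted p = 0.0143), and it missed the threshold without male KO chow 3 (adjusted p = 0.0573) or male WT chow 2 (-0.67, adjusted p = 0.0678), and with the 2 groups fitted alone (adjusted p = 0.0531).

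In females Mybph had 322.41, 239.01 and 391.21 CPM in KO HFD muscle, against 265.50, 308.76, 418.48 and 204.19 CPM in WT HFD muscle. It had 156.44, 216.65, 188.42 and 157.36 CPM in KO chow muscle, against 160.19, 260.33, 332.91 and 299.17 CPM in WT chow muscle. The female genotypes overlapped on both diets, at 0.13 ± 0.24 and -0.59 ± 0.22 (adjusted p = 0.923 and 0.758). The average over strata, which includes the known male HFD difference, fell by 0.79 ± 0.12 (adjusted p = 0.000167). Its difference between males and females was -1.12 ± 0.24 (adjusted p = 0.0542), just short of the threshold, and it passed in DESeq2 (adjusted p = 0.00228), with the GC correction (0.0324) and without each of 4 single libraries (0.0174 to 0.0357). Exons of Mybph share 1162 bases with exons of Adora1 on the other strand, and as the sources used here give no strand setting for the counting, reads there cannot be told apart. Adora1 itself lay between 0.54 and 6.81 CPM.

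Myh3 (ENSMUSG00000020908, chromosome 11, 67078300 to 67102291, mm10) encodes the embryonic myosin heavy chain, the first heavy chain of developing fibres and a standard sign of regeneration. On the high-fat diet it had 2.86, 2.82 and 4.75 CPM in male KO muscle, against 8.51, 22.37, 4.08 and 7.73 CPM in male WT muscle. In females on that diet it had 4.15, 8.97 and 3.90 CPM in KO muscle, against 19.47, 30.72, 20.02 and 12.46 CPM in WT muscle. Only the female HFD groups stood apart. No single stratum passed, with log2 fold changes of -1.54 ± 0.49 in male HFD, -0.96 ± 0.44 in male chow, -1.81 ± 0.46 in female HFD and -0.44 ± 0.44 in female chow (adjusted p = 0.236, 0.195, 0.208 and 1). The average over the strata fell by 1.19 ± 0.23 (adjusted p = 0.00389). On chow Myh3 had 5.70, 1.48, 4.69 and 4.44 CPM in male KO muscle, against 8.10, 5.24, 11.38 and 10.45 CPM in male WT muscle. Female chow values were 6.65, 5.18, 3.92 and 5.44 CPM in KO muscle, against 4.66, 6.21, 11.32 and 5.81 CPM in WT muscle. The genotypes overlapped on chow in both sexes. Of the 50-base stretches of the Myh3 transcript 4.81% occur in other genes, mainly Myh13, and of its 100-base stretches 1.15%.

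Ankrd1 (ENSMUSG00000024803, chromosome 19, 36111961 to 36120099, mm10) encodes the cardiac ankyrin repeat protein, which binds titin in the spring region and is induced by stretch and injury. On the high-fat diet it had 11.80, 5.36 and 7.92 CPM in male KO muscle, against 15.19, 13.27, 21.59 and 31.24 CPM in male WT muscle. On chow it had 11.06, 5.83, 6.64 and 15.55 CPM in male KO muscle, against 27.38, 12.42, 21.66 and 28.98 CPM in male WT muscle. Males on the high-fat diet did not overlap, while males on chow did. In females it had 14.07, 11.93 and 19.86 CPM in KO HFD muscle, against 26.14, 27.46, 26.34 and 16.58 CPM in WT HFD muscle. On chow it had 18.01, 15.87, 19.21 and 22.54 CPM in female KO muscle, against 13.83, 15.27, 41.13 and 28.25 CPM in female WT muscle. The female groups overlapped on both diets. The 4 strata gave log2 fold changes of -1.27 ± 0.41, -1.07 ± 0.37, -0.62 ± 0.39 and -0.41 ± 0.35 in male HFD, male chow, female HFD and female chow, and none passed (adjusted p = 0.24, 0.077, 0.717 and 1). The male chow value passed in DESeq2 (adjusted p = 0.0407) and without male KO chow 4 or male WT chow 2 (0.0347 and 0.0432). The average fell by 0.84 ± 0.19 (adjusted p = 0.0126), and missed the threshold without the 3 libraries high in Krt10 (-0.74, adjusted p = 0.0553).

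Csrp3, Myl4 and Myh8 did not pass for genotype. Their average log2 fold changes were 0.04 ± 0.16, 0.14 ± 0.12 and -0.25 ± 0.14 (adjusted p = 0.928, 0.558 and 0.306). Over the 4 strata the values lay between -0.56 and 0.57 for Csrp3, between -0.03 and 0.35 for Myl4 and between -0.80 and 0.02 for Myh8. Myh8 (ENSMUSG00000055775, chromosome 11, 67277124 to 67308634, mm10) encodes the perinatal myosin heavy chain that follows Myh3 in development. Its means ran from 18.1 ± 2.4 CPM in female KO chow muscle to 30.5 ± 9.9 CPM in female WT chow muscle (SD, n = 4 each), and it passed in none of the 14 comparisons. Of its 50-base stretches 21.4% occur in other genes, mainly the adult Myh2, and of its 100-base stretches 6.61%, so its counts are uncertain.

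Counted by stratum, Actc1 passed for genotype in male HFD beside the known fall of Mybph, which is left out of the count, and 0.264% of all genes passed there. In male chow 2 of the 7 passed (Actc1 and Mybph, both lower), where 6.95% of all genes passed. In edgeR none passed in female HFD or female chow, where 0.0713% and 0.0927% of all genes passed. At an unadjusted p under 0.05 the counts were 1 gene in female HFD (Myh3) and 3 in female chow (Actc1, Mybph and Myh8). Over all 14024 genes they were 1102 and 681. DESeq2 called 0 of the 7 in both, beside 38 and 31 over all genes. In edgeR none passed for the difference in genotype effect between males and females or between diets, where 0.0285% and 0.107% of all genes passed. The unadjusted counts were 2 genes in each (Actc1 and Mybph for sex, Myh3 and Csrp3 for diet), beside 1428 for sex and 1178 for diet over all genes. DESeq2 called 2 of the 7 for sex and 0 for diet, beside 76 and 60 over all genes. The genotype difference on the high-fat diet minus that on chow was -0.98 ± 0.45 for Myh3 and -0.92 ± 0.32 for Csrp3 (adjusted p = 0.579 and 0.423), and lay between -0.21 and 0.51 for the other 5 genes. In male chow markers of other cell types moved too. All 5 fibroblast markers fell in KO muscle, with a summed level of 103.6 to 496.5 CPM in male KO chow muscle and 424.7 to 852.3 CPM in male WT chow muscle, and 4 of 5 macrophage markers and 3 of 4 endothelial markers fell. In male HFD none of these 14 markers passed in edgeR or DESeq2 (6 at an unadjusted p under 0.05, beside 1386 of all 14024 genes). The summed fibroblast level there was 451.4 to 669.1 CPM in KO and 699.7 to 998.2 CPM in WT muscle. Their part in the genotype differences was not tested.

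**Figure D2:**
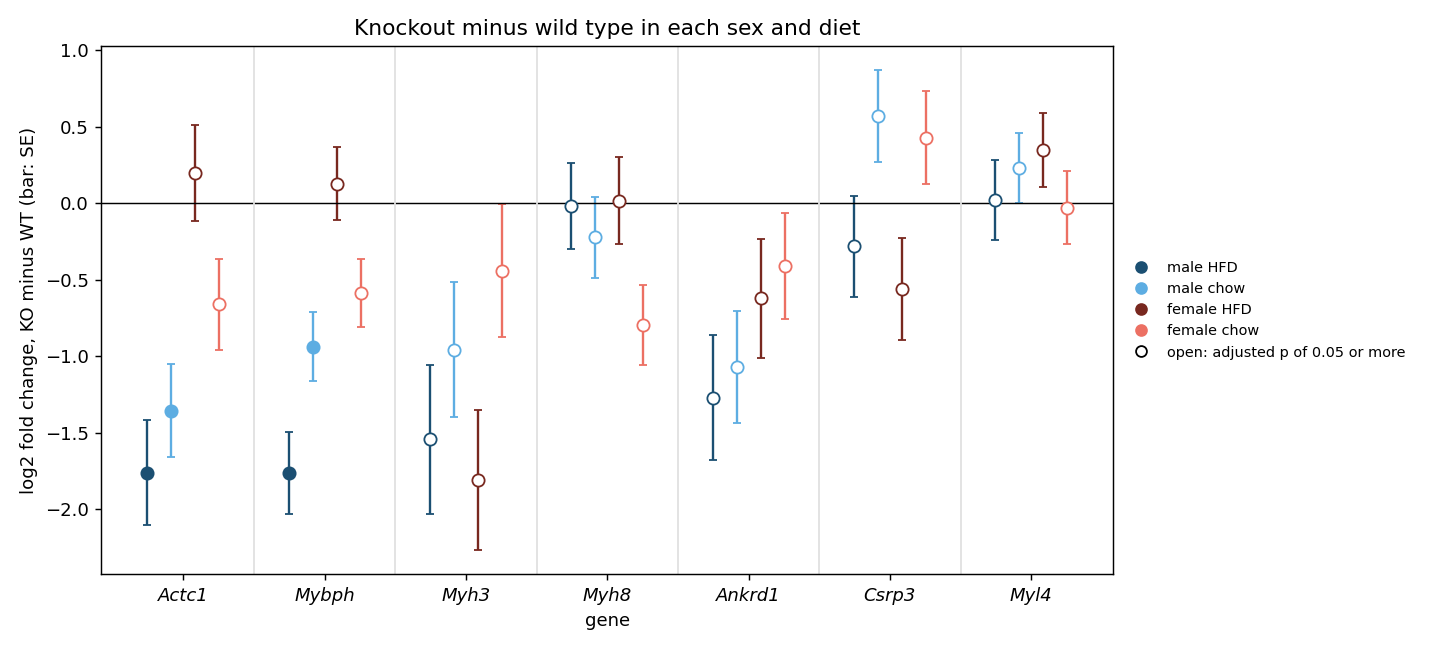
Log2 fold change of each gene, KO minus WT, with its SE, in male HFD, male chow, female HFD and female chow. Filled points have an adjusted p under 0.05. They are Actc1 (-1.76 and -1.36) and Mybph (-1.76 and -0.94) in males, of which Mybph in male HFD was a known result and is a description.

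The second comparison asked what the high-fat diet did. Averaged over sex and genotype, only Mybph passed, lower on the high-fat diet by 0.50 ± 0.12 on the log2 scale (adjusted p = 0.042), where 0.827% of all genes passed. The other 6 genes lay between -0.25 (Csrp3) and 0.44 (Myh3). The Mybph average joined opposite directions and was lost without each of 18 single libraries (adjusted p up to 0.112).

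In male KO muscle Mybph had 15.49, 10.05 and 18.00 CPM on the high-fat diet, against 50.29 to 57.45 CPM on chow, a change of -2.02 ± 0.27 (adjusted p = 0.000765). The male KO HFD libraries are those of the known low level of Mybph, so this change is a description. In male WT muscle Mybph had 41.75 to 56.73 CPM on the high-fat diet, against 79.68 to 180.90 CPM on chow (-1.19 ± 0.23, adjusted p = 0.0144). The diets did not overlap in either male genotype. The WT call was lost without male WT chow 2 (-0.93, adjusted p = 0.0739), male WT HFD 1 (0.0561) or male WT HFD 3 (0.0667). In female KO muscle Mybph went the other way, with 239.01 to 391.21 CPM on the high-fat diet against 156.44 to 216.65 CPM on chow (0.97 ± 0.24, adjusted p = 0.00803), and the diets did not overlap. That call was lost without the 3 libraries high in Krt10 (0.89, adjusted p = 0.104), which include female KO chow 1 and 3 of the 4 in that group. Female WT muscle gave 0.25 ± 0.22 (adjusted p = 0.41) with overlapping diets.

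Of the 4 strata Actc1 passed for diet in female KO muscle, where it rose to 793.5 ± 14.7 CPM on the high-fat diet (SD, n = 3), against 373.5 ± 134.4 CPM on chow (SD, n = 4), a change of 1.25 ± 0.32 (adjusted p = 0.0104). Every female KO HFD library was above every female KO chow library. The call was lost without female KO HFD 2 (1.23, adjusted p = 0.0736) and without the 3 libraries high in Krt10 (1.57, adjusted p = 0.0614). The other strata gave -0.85 ± 0.34 in male KO, -0.45 ± 0.30 in male WT and 0.39 ± 0.29 in female WT muscle (adjusted p = 0.113, 0.635 and 0.336), all with overlapping diets. The male KO value passed without male KO chow 4 (-1.08, adjusted p = 0.0402).

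Csrp3 (ENSMUSG00000030470, chromosome 7, 48830398 to 48848033, mm10) encodes muscle LIM protein, a Z-disc protein of slow and cardiac muscle tied to the sensing of stretch. In male KO muscle it had 42.85, 42.16 and 52.41 CPM on the high-fat diet, against 121.38, 82.26, 97.95 and 136.19 CPM on chow. In female WT muscle it had 110.41, 87.06, 84.70 and 139.90 CPM on the high-fat diet, against 98.16, 49.26, 45.94 and 38.07 CPM on chow. The diets did not overlap in male KO muscle and overlapped in female WT muscle through 1 chow library. Csrp3 fell by 1.38 ± 0.34 in male KO muscle (adjusted p = 0.023) and rose by 0.95 ± 0.31 in female WT muscle (adjusted p = 0.0262). The fall was lost without male KO chow 1, male KO HFD 1 or male KO HFD 2 (adjusted p = 0.0579, 0.113 and 0.0905), and the rise without female WT HFD 4 or female WT chow 2, 3 or 4 (adjusted p = 0.0911, 0.0604, 0.0817 and 0.0827). Without the libraries of conflicting labels the female WT value was 0.61 (adjusted p = 0.229). In male WT muscle it had 71.35, 47.85, 82.76 and 26.65 CPM on the high-fat diet, against 85.22, 68.58, 69.19 and 103.91 CPM on chow. Female KO muscle had 74.33, 85.50 and 48.67 CPM on the high-fat diet, against 57.73, 73.11, 98.61 and 91.55 CPM on chow. These strata overlapped and did not pass, at -0.53 ± 0.31 and -0.04 ± 0.33 (adjusted p = 0.56 and 0.941).

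Myl4 (ENSMUSG00000061086, chromosome 11, 104550663 to 104595753, mm10) encodes the essential myosin light chain of the atrium and of embryonic muscle. In female KO muscle it had 13.05, 21.33 and 13.12 CPM on the high-fat diet, against 9.17, 8.42, 7.12 and 8.63 CPM on chow. In female WT muscle it had 6.96, 13.80, 15.39 and 15.62 CPM on the high-fat diet, against 6.88, 7.29, 11.98 and 7.01 CPM on chow. The diets did not overlap in female KO muscle and did in female WT muscle. Myl4 rose by 1.09 ± 0.25 (adjusted p = 0.00531) in female KO and by 0.71 ± 0.23 (adjusted p = 0.0268) in female WT muscle. The KO call was lost without female KO HFD 2 (0.78, adjusted p = 0.108) and without the 3 libraries high in Krt10 (1.03, adjusted p = 0.0743). The WT call was lost without each of 5 single libraries, which were female WT HFD 3 and 4 and female WT chow 1, 2 and 4 (adjusted p from 0.0586 to 0.0968), and without the libraries of conflicting labels (0.52, adjusted p = 0.196).

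In male KO muscle Myl4 had 7.67, 6.90 and 7.63 CPM on the high-fat diet, against 12.99, 11.82, 9.77 and 12.56 CPM on chow, with no overlap. In male WT muscle it had 6.76, 10.06, 5.50 and 7.89 CPM on the high-fat diet, against 10.57, 9.55, 9.35 and 15.42 CPM on chow. The changes of -0.81 ± 0.26 and -0.60 ± 0.24 did not pass over all genes (adjusted p = 0.0557 and 0.323). The male KO change passed in DESeq2 (adjusted p = 0.0284), with the groups of the stratum fitted alone (0.00335), without each of 8 single libraries (0.0318 to 0.0493) and without the 3 libraries of low Trim63 (0.0491).

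Of the 4 strata Myh3 passed for diet in female WT muscle, where it rose by 1.63 ± 0.40 (adjusted p = 0.00634). All 4 female WT HFD libraries, at 12.46 CPM or above, were higher than the 4 female WT chow libraries, at 11.32 CPM or below. The other 3 strata gave -0.36 ± 0.51 in male KO, 0.23 ± 0.41 in male WT and 0.26 ± 0.48 in female KO muscle. Ankrd1 and Myh8 passed in no diet stratum, with log2 changes of Ankrd1 from -0.35 to 0.05 and of Myh8 from -0.20 to 0.62.

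By stratum, Csrp3 passed for diet in male KO muscle (lower), where 5.83% of all genes passed. The fall of Mybph there uses the libraries of the known result and is left out of the count. In male WT muscle 1 of 7 passed (Mybph, lower), where 0.349% of all genes passed. In female KO muscle 3 of 7 were higher (Actc1, Mybph and Myl4), where 19.2% of all genes passed, and in female WT muscle 3 of 7 were higher (Myh3, Csrp3 and Myl4), where 25.4% passed. The 5 skeletal muscle markers, Acta1 among them (0.69 ± 0.12, adjusted p = 0.000787), all rose in female KO muscle, to a sum of 139500 to 156300 CPM on the high-fat diet against 104300 to 111500 CPM on chow. Mitochondrial genes held 5.55% to 9.75% of the counts in female KO HFD libraries and 10.6% to 12.4% in female KO chow libraries. Tendon markers summed to 87.9 to 136.9 CPM in female KO HFD libraries and to 201.6 to 319.8 CPM in female KO chow libraries, and keratinocyte markers to 1.15 to 2.18 CPM and 1.74 to 81.0 CPM. In female WT muscle on the high-fat diet 3 of 4 tendon, 2 of 5 fibroblast, 2 of 5 macrophage and 2 of 4 Schwann cell markers were lower, and Acta1 was higher (0.56 ± 0.11, adjusted p = 0.00112). There 1 of 3 tested muscle spindle (intrafusal fibre), 1 of 4 satellite cell and 1 of 4 endothelial markers were higher too. Spindle markers summed to 17.7 to 28.4 CPM in female WT HFD libraries and to 8.62 to 15.7 CPM in female WT chow libraries. In male KO muscle on the high-fat diet 2 of 5 fibroblast, 1 of 5 macrophage and 1 of 4 tendon markers were higher, and Acta1 was lower (-0.57 ± 0.12, adjusted p = 0.00948). The part of these markers in the diet differences was not tested.

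**Figure D3:**
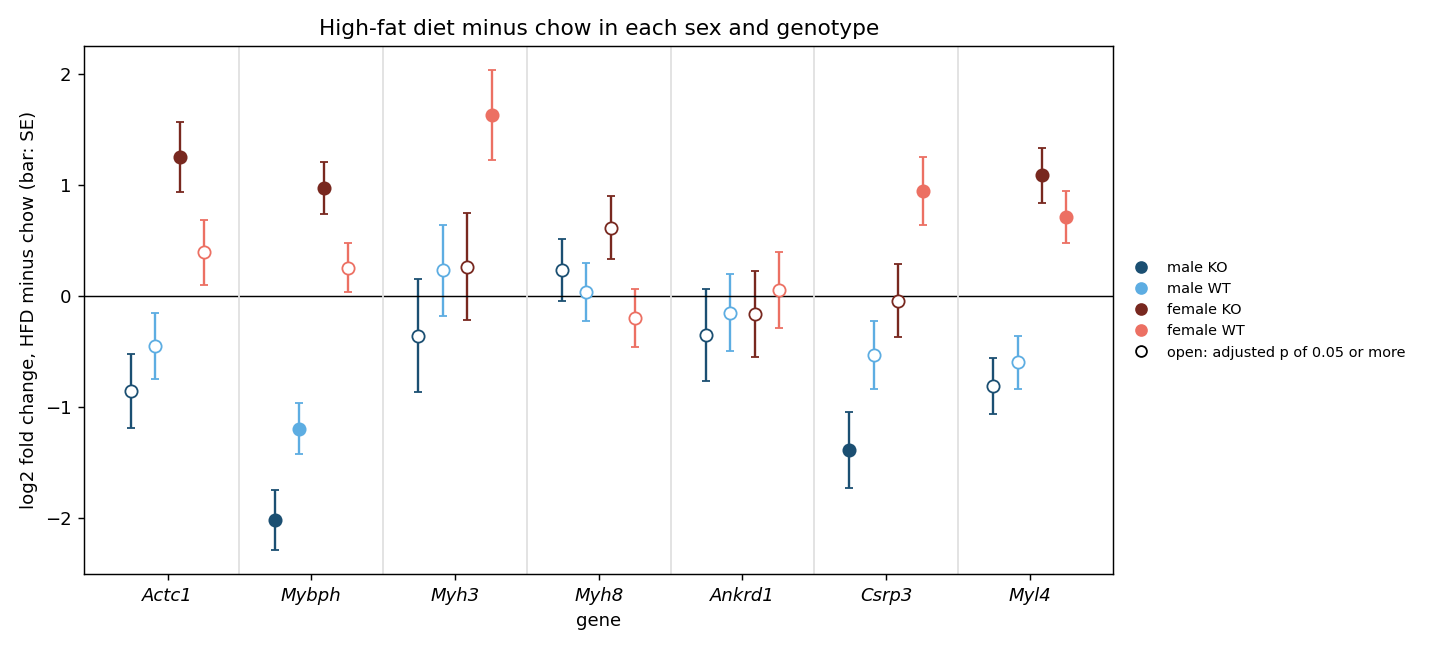
Log2 fold change of each gene, HFD minus chow, with its SE, in male KO, male WT, female KO and female WT muscle. For Actc1, Mybph and Myl4 both male points lie below 0 and both female points above it, from -2.02 for Mybph in male KO to 1.25 for Actc1 in female KO muscle.

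The diet difference in males minus that in females was tested directly. It passed for 4 of the 7 genes, all lower in males: -2.22 ± 0.24 for Mybph (adjusted p = 5.08e-07), -1.60 ± 0.24 for Myl4 (1.37e-05), -1.47 ± 0.31 for Actc1 (0.000614) and -1.41 ± 0.32 for Csrp3 (0.00111). The Mybph value includes the male KO HFD libraries of the known result. Among all genes 45.2% passed, so 57.1% of the 7 is near the background and is no result about the list. Markers of other cell types passed in the opposite direction: 4 of 5 fibroblast, 4 of 5 macrophage, 3 of 4 smooth muscle, 3 of 4 adipocyte, 3 of 4 tendon (tendon median 2.15) and 2 of 4 Schwann cell markers. In the direction of the members, all 5 skeletal muscle, 1 of 4 satellite cell and 1 of 3 tested muscle spindle markers were lower. Their part in the member values was not tested. Myh3 gave -1.01 ± 0.45 (adjusted p = 0.0722), and passed without each of 4 single libraries (0.00791 to 0.0488). Ankrd1 gave -0.20 ± 0.38 (0.69) and Myh8 -0.08 ± 0.27 (0.837). No single library or alternative fit removed the calls of Mybph, Myl4 and Csrp3, and that of Actc1 was lost in the grouping by own titles (-1.25, adjusted p = 0.0606).

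The third comparison set males against females. The library numbers in the descriptions ran from 1 to 16 in males and from 17 to 31 in females, with each group in a run of its own. What these numbers record is not given in the sources used here, and sex and group cannot be told apart from their order. Actc1 and Mybph were lower in males, by 2.61 ± 0.16 and 2.38 ± 0.12 on the log2 scale averaged over the strata (adjusted p = 7.94e-12 and 2.17e-14). Among all genes 30.8% passed for sex, so 2 of 7 is near the background. Actc1 ranged from 31.05 to 272.79 CPM in the 15 male libraries, with a median of 99.7 CPM, and from 216.07 to 820.75 CPM in the 15 female libraries, with a median of 665.8 CPM. Mybph ranged from 10.05 to 180.90 CPM in males, with a median of 54.8 CPM, and from 156.44 to 418.48 CPM in females, with a median of 260.3 CPM. Markers of other cell types were lower in males too: 5 of 5 fibroblast, 4 of 5 macrophage, 4 of 4 Schwann cell, 3 of 4 tendon and 2 of 4 adipocyte markers. Fibroblast markers summed to 103.6 to 998.2 CPM in males and 334.4 to 1705 CPM in females, and their part in the sex difference was not tested. The sexes did not overlap for Actc1 in any of the 4 strata, and for Mybph they overlapped in WT chow alone.

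The gap was widest in KO mice on the high-fat diet, where males minus females was -4.33 ± 0.39 for Actc1 and -4.43 ± 0.30 for Mybph on the log2 scale. In KO chow mice the gaps were -2.22 ± 0.31 for Actc1 and -1.45 ± 0.23 for Mybph. In WT HFD mice they were -2.37 ± 0.31 and -2.55 ± 0.24, and in WT chow mice -1.53 ± 0.30 and -1.10 ± 0.22. These single-stratum gaps were not tested. Averaged over the strata, the other 5 genes did not pass for sex: -0.43 ± 0.19 for Ankrd1 (adjusted p = 0.0832), -0.33 ± 0.23 for Myh3 (0.286), -0.13 ± 0.12 for Myl4 (0.469), -0.03 ± 0.16 for Csrp3 (0.913) and 0.08 ± 0.14 for Myh8 (0.687). Ankrd1 passed without male KO chow 4 or male WT HFD 4 (adjusted p = 0.0475 and 0.041), and with the replicate block (-0.47, adjusted p = 0.0249).

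Ordered by mean, the 8 groups of Actc1 ran 39.1 CPM in male KO HFD, 63.6 in male KO chow, 136.6 in male WT HFD, 186.2 in male WT chow, 373.5 in female KO chow, 571.7 in female WT chow, 713.2 in female WT HFD and 793.5 in female KO HFD. Of the neighbours in that order, only male KO chow and male WT HFD did not overlap. Mybph ran 14.5 CPM in male KO HFD, 50.4 in male WT HFD, 53.2 in male KO chow, 116.1 in male WT chow, 179.7 in female KO chow, 263.1 in female WT chow, 299.2 in female WT HFD and 317.5 in female KO HFD. Here male KO HFD and male WT HFD, and male KO chow and male WT chow, were the neighbours that did not overlap. For Myl4 1 pair of neighbours stood apart, male WT chow at 11.2 CPM and female KO chow at 8.34 CPM, and for Myh3, Myh8, Ankrd1 and Csrp3 all neighbours overlapped.

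Over 21 pairs of genes and 30 libraries, 2 pairs passed by Spearman correlation with adjustment over the pairs: Actc1 with Mybph, and Myh3 with Ankrd1 (rho = 0.52, permutation p = 0.00386, adjusted p = 0.0405). For Myh3 and Ankrd1 Pearson's r was 0.55 (permutation p = 0.00155, adjusted p = 0.0155), and 0.62 without the 2 libraries farthest from the median of Myh3. Without each of 14 single libraries, 1 pair passed in place of 2. Because Actc1 separates the sexes, its relation with Mybph is given within each sex. In the 15 males rho was 0.60 (permutation p = 0.0204, adjusted p = 0.0925) and r was 0.73 (permutation p = 0.00173, adjusted p = 0.0363), or 0.64 without the 2 farthest libraries. In the 15 females rho was 0.70 (permutation p = 0.00477, adjusted p = 0.1) and r was 0.75 (permutation p = 0.00136, adjusted p = 0.0286), or 0.62 without the 2 farthest. Libraries of 1 group share genotype, diet and sex, and on deviations from the group means rho was 0.10 for Actc1 with Mybph and 0.22 for Myh3 with Ankrd1. The largest values on deviations were -0.63 for Mybph with Csrp3 and 0.52 for Myh3 with Myl4. On deviations 2 pairs passed, in a permutation test that takes no account of the removed means.

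**Figure D4:**
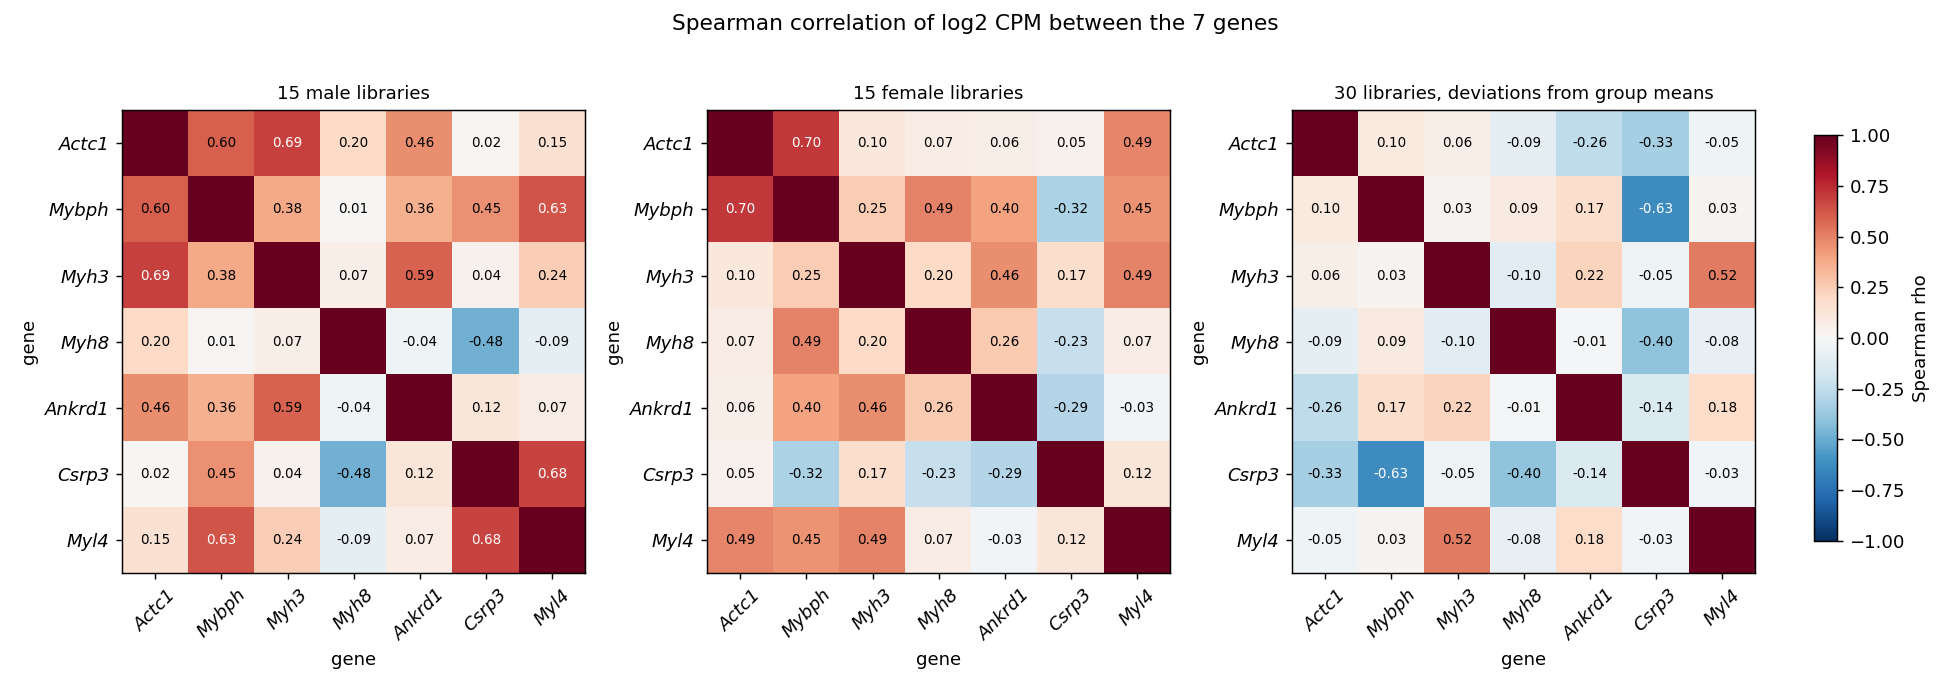
Spearman rho of log2 CPM for each pair of the 7 genes in 15 male libraries, in 15 female libraries, and in 30 libraries after removal of group means. Actc1 with Mybph reaches 0.60 in males and 0.70 in females and 0.10 on deviations.

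Other genes of the same kinds were counted from lists drawn up with earlier results known, beside the 4.39% of all genes that passed for the genotype average. Of 19 other genes of immature or regenerating fibres tested, 2 fell and none rose with MuRF1 loss on average, the imprinted gene Mest (-0.39 ± 0.11, adjusted p = 0.0401) and the adhesion molecule Ncam1 (-0.39 ± 0.12, adjusted p = 0.0455), and the median was -0.17. Of 13 other cardiac and slow contractile genes 1 fell, the calcium pump inhibitor Sln (-1.07 ± 0.25, adjusted p = 0.0151), and none rose, with a median of -0.04. Of 20 titin-linked and stretch-responsive genes 2 fell, the small heat shock protein Hspb7 (-0.44 ± 0.08, adjusted p = 0.002) and the M-line protein Myom3 (-0.57 ± 0.11, adjusted p = 0.00289), with a median of 0.00. The Hspb7 average joined unlike diets: its genotype difference on the high-fat diet minus that on chow was -1.02 ± 0.17 (adjusted p = 0.0132). It was -0.92 ± 0.18 in male HFD and -0.98 ± 0.18 in female HFD. None of 12 fast contractile genes passed in edgeR or DESeq2 (1 at an unadjusted p under 0.05, beside 2764 of all 14024 genes), and their median was 0.03. Of 11 denervation genes 2 fell, the acetylcholinesterase Ache (-0.39 ± 0.09, adjusted p = 0.00891) and Ncam1, and the synaptic kinase Musk rose (0.52 ± 0.12, adjusted p = 0.0151). Of 12 targets of YAP and TEAD, the regulators that bind M-CAT elements, Amotl2 fell (-0.42 ± 0.10, adjusted p = 0.0157).

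For sex, 11 of the 13 other cardiac and slow contractile genes were lower in males and none higher, with a median of -0.81 against -0.02 over all genes, of which 30.8% passed for sex in either direction. Examples were Tnnt1, slow troponin T (-1.04 ± 0.17, adjusted p = 5.11e-05), and Myh7, the slow and ventricular heavy chain (-1.19 ± 0.20, adjusted p = 7.96e-05). Of the 12 fast genes 6 were higher in males, Myh4 among them (0.33 ± 0.06, adjusted p = 0.000138), and none was lower. Of the 19 immature-fibre genes 11 were lower in males, led by H19 (-1.41 ± 0.08, adjusted p = 6.52e-15), and Myf6 was higher (0.45 ± 0.06, adjusted p = 3.03e-07). For the diet difference in males minus that in females, 9 of 12 genes of the fast list were lower and none higher, Acta1 among them (-0.92 ± 0.12, adjusted p = 1.28e-06). Acta1 is also 1 of the 5 skeletal muscle markers, which were all lower there. Of 20 titin-linked genes 8 were lower and 3 higher, beside the background of 45.2%.

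The genes whose levels tracked each member most closely over the 30 libraries were found among 12305 genes by Spearman's rho, as a description. Closest to Actc1 were Cxxc5 (0.90), Obsl1 (0.87) and Ces1d (0.86), and to Mybph Kcnc4 (0.92), Pknox2 (0.90) and Obsl1 (0.89). Obsl1, a cytoskeletal relative of obscurin, was thus close to both. Actc1 and Mybph themselves gave rho of 0.90 over the same libraries, and the ranking took no account of sex or group. Closest to Myh3 was Sln (0.77), to Ankrd1 Ncam1 (0.79), to Csrp3 Ankrd2 (0.90), a relative of Ankrd1 that also binds titin, to Myl4 Lsm14b (0.85), and to Myh8 Gpatch8 (0.61). Ankrd2 also fell on the high-fat diet in male KO muscle (-0.94 ± 0.28, adjusted p = 0.0465) and rose in female WT muscle (0.95 ± 0.26, adjusted p = 0.0101), the 2 strata in which Csrp3 passed. Sln rose on the high-fat diet in female WT muscle (1.73 ± 0.43, adjusted p = 0.00608), the stratum in which Myh3 passed. Ankrd2 and Sln were picked because they tracked Csrp3 and Myh3 over these same libraries. Their changes in the same strata follow in part from that choice and are no independent support.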

How the data were processed

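PolyA RNA of gastrocnemius muscle was sequenced, and the authors deposited raw read counts per gene for each animal. The submitters' processing notes name featureCounts, bcl2fastq and mm10. Which aligner, gene annotation and strand option they used is not given in the sources used here. Total counts were 9342028 to 14919379 per library, so a count of 3 stands for 0.201 to 0.321 CPM. Genes without a symbol held 0.113% of the counts, and symbols and exon lengths came from GENCODE M21.

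The 7 members and the 18 other gene lists were chosen with earlier results of these data known. Genes were kept with edgeR's filterByExpr (minimum count 10), which left 14024, and scaled by TMM. The 30 libraries were fitted in 8 groups that shared 1 estimate of the spread (edgeR 4.0.16 in R 4.3.3, robust quasi-likelihood fit). In all 14 contrasts were tested, with Benjamini-Hochberg adjustment over all genes within each and a threshold of 0.05. The common dispersion was 0.0202, a variation of 14.2% between animals. Standard errors were derived from the fold change and the F statistic. CPM values are per library total without TMM, and TPM values divide by exon length. The averages over strata weight the strata equally.

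All 7 members were fitted in every contrast. From the lists it names members that passed, and for likeness the 3 genes of highest Spearman's rho per member, taken from genes whose mean log2 CPM was 0 or more (prior count 0.5). Permutation tests used 100000 resamples. Promoters are RefSeq windows on GRCm38.p6.

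Alternatives were DESeq2 1.42.0, RLE scaling, no filter on low counts, a replicate block, each library left out in turn, the groups of a stratum alone, grouping by each record's own title, and leaving out 4 libraries of conflicting labels, 3 WT libraries with Trim63 between 50 and 150 CPM, or 3 libraries with Krt10 over 5 times its median. A correction for GC content (lowess with a span of 0.3, on 13907 genes) was added after seeing the data. Replicate numbers did not pair the animals. In 42 pairs of libraries within groups, the lowest chi-square per gene was 4.36, so no 2 libraries were counted as 1. The scripts were tested on simulated data. Python 3.11.15 with numpy 2.4.6, scipy 1.17.1, pandas 2.3.3 and matplotlib 3.10.9 was used.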

Additional observations from a re-analysis of the deposited data

Results flagged for a closer look

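For Ankrd1 the library female WT HFD 4, at 16.58 CPM, lay far below the other 3 of its group (26.14 to 27.46 CPM). For Myl4 the library female WT chow 3, at 11.98 CPM, lay far above the other 3 of its group (6.88 to 7.29 CPM). These were 2 of 42 tests of a highest or lowest library in groups of 4, and chance flags about 1 in 20 groups. Groups of 3 were not tested. Female WT HFD 4 is also 1 of the libraries of conflicting labels and of low Trim63, and female WT chow 3 is 1 of the 3 libraries high in Krt10.

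The effect of diet differed between the sexes for 4 of the 7 genes by the interaction test, males minus females on the log2 scale: -1.47 for Actc1, -2.22 for Mybph, -1.41 for Csrp3 and -1.60 for Myl4. Among all genes 45.2% passed the same test.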

How the results depend on the processing

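Of 949 alternative values of the 24 calls, 869 stayed past the threshold in the same direction, 80 did not pass and 0 changed direction. The cause was not tested. The 24 calls and the male HFD counts below include the known Mybph difference, which they describe and do not support. The counts for diet in male KO include Mybph in the same male KO HFD libraries. Leaving out single libraries gave 1 to 3 of the 7 genes called for genotype in male chow (2 with all libraries), 1 to 2 in male HFD (2), 0 to 1 for the diet average (1), 1 to 4 for diet in male KO (2), 0 to 1 in male WT (1), 1 to 3 in female KO (3), 1 to 3 in female WT (3), 0 to 2 for genotype by sex (0), 2 to 3 for sex (2), 4 to 5 for diet by sex (4) and 1 to 3 correlated pairs (2). Grouped by own titles, 0 genes were called for the genotype average, genotype in male chow and male HFD, the diet average, and diet in male WT and female WT, and 1 for diet in female KO. Without low-Trim63 libraries 1 was called for genotype in male chow. With the stratum alone, 0 were called in male chow, 1 in male HFD and 1 for diet in female WT. Without libraries of conflicting labels 1 was called in male HFD, 0 for the diet average and 1 for diet in female WT. With no filter 0 were called for the diet average and 1 for diet in female WT. Without the libraries high in Krt10, 0 were called for the diet average and for diet in female KO, and 1 correlated pair. That setting left out female KO chow 1 and 3 of the 4 in that group, so Krt10 and fewer libraries cannot be told apart in it. DESeq2 called 2 for genotype by sex, and the GC correction 1 there and 1 for diet in female WT. Numbers of replicates did not pair animals (same-number correlations of deviations from -0.276 to 0.489, median 0.022), and with the replicate block 4 genes were called for the genotype average, 3 for genotype in male chow (Ankrd1 gained) and 3 for sex (Ankrd1 gained). Over all genes, leaving out single libraries gave 390 to 1203 calls for the genotype average (615 with all), lowest without male KO HFD 2 and highest without female WT HFD 4, 183 to 1598 for male chow (974), lowest without male KO chow 2 and highest without male KO chow 4, 16 to 68 for male HFD (37), 3 to 45 for female chow (13), 2 to 53 for female HFD (10), 23 to 257 for the diet average (116), 106 to 1384 for diet in male KO (818), lowest without male KO HFD 1, 17 to 74 in male WT (49), 270 to 3123 in female KO (2688), lowest without female KO HFD 2, 1829 to 3892 in female WT (3558), lowest without female WT HFD 3, 1 to 45 for genotype by diet (15) and 2 to 217 for genotype by sex (4). The shares over all genes printed beside the members move with these counts. Under the other settings, counts that moved by more than 1.5 times were these. For the genotype average (615), own titles gave 128, the block 997, no low-Trim63 libraries 953 and no libraries high in Krt10 237. For male chow (974) own titles gave 493, no low-Trim63 libraries 434 and the stratum alone 279. For male HFD (37) they were 98 in DESeq2, 62 with the block, 0 by own titles, 16 without conflicting labels, 63 without low Trim63, 64 alone and 56 with GC correction. For female chow (13) they were 31 in DESeq2, 0 by own titles, 7 without conflicting labels, 48 without low Trim63, 1 without high Krt10 and 36 alone. For female HFD (10) they were 38 in DESeq2, 6 with no filter, 22 with the block, 0 by own titles, 26 without conflicting labels, 41 without low Trim63 and 2 alone. The diet average (116) gave 410 in DESeq2, 35 with no filter, 0 by own titles, 30 without conflicting labels, 12 without high Krt10 and 11 with GC correction. Diet in male KO (818) gave 478 with no filter and 2295 alone, and in male WT (49) 133 in DESeq2, 1 by own titles and 85 with GC correction. Diet in female KO (2688) gave 106 without high Krt10. Diet in female WT (3558) gave 5 by own titles, 1928 without conflicting labels, 2069 without high Krt10, 2229 alone and 1388 with GC correction. Genotype by diet (15) gave 60 in DESeq2, 6 with no filter, 0 by own titles, 4 without conflicting labels, 1 without high Krt10 and 3 with GC correction, and genotype by sex (4) gave 76 in DESeq2, 0 by own titles, 12 with the block and 14 with GC correction. The GC correction raised the share of higher genes among calls to 51.1%, against 35.4%, for the genotype average and to 37.8%, against 23.5%, in male chow, and no scaling changed the direction of a called member. Myh3, with a lowest count of 18, had the widest errors.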

Other observations

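The library of the animal that no title names was in no comparison, and its own title names male KO HFD. It had 107.11 CPM of Trim63, below the 108.54 to 253.61 CPM of the WT libraries and above the 0.47 to 6.24 CPM of the KO libraries, 51.69 CPM of Ddx3y and 0.10 CPM of Xist. Among the 7 genes it had 60.09 CPM of Actc1, 15.07 CPM of Mybph, 13.73 CPM of Myh3, 24.32 CPM of Myh8, 12.49 CPM of Ankrd1, 57.70 CPM of Csrp3 and 8.68 CPM of Myl4. Krt10 was at 2.58 CPM.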
